A study of Homo sapiens with 4 samples.

Results

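Peaks on unplaced and unlocalized contigs were described in HA-antibody ChIP-seq of K562 cells. These contigs are stretches of the human assembly that have not been put into a chromosome sequence. An unlocalized contig is assigned to a chromosome but not to a place in it, and an unplaced contig is assigned to no chromosome. The members were all peaks whose sequence name was not that of a numbered chromosome, X, Y or the mitochondrial genome. They came to 119 of the 12662 peaks (0.940%, 95% Wilson interval 0.786% to 1.12%) in the ChIP library labelled HA. In the ChIP library labelled WT they came to 272 of 6874 peaks (3.96%, 3.52% to 4.44%). The shorter list therefore held the larger number of contig peaks. A called region with several summits gives several peaks. The 119 peaks came from 115 regions and the 272 from 244, and the intervals count every peak separately.

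K562 is a human cell line that was derived from chronic myeloid leukemia. The study used untreated K562 cells that overexpressed HA-PHF6 (PHF6 carrying an HA tag) and, as control, K562 cells that overexpressed HA. Chromatin was cross-linked, sheared by ultrasound and precipitated with an antibody against the HA tag. There were 4 libraries, 2 of ChIP DNA and 2 of input DNA, with 1 ChIP library and its own input per condition. In the titles the ChIP libraries differ by HA and WT alone, which does not settle the one that came from HA-PHF6 cells. They are therefore named by these labels, as the HA library and the WT library, and the names say nothing about the cells. Whether a clone or a pool of cells was used is not given in the sources used here. Without replicates, no difference between the libraries could be set against a spread between replicates. Intervals cover counting error only, and those of fold enrichments count the ChIP tags alone and take the background as exact.

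PHF6 is a chromatin-associated protein with PHD-type zinc fingers that is mutated in leukemia, and it is known to be present in the nucleoplasm and the nucleolus. The nucleolus forms around the ribosomal RNA genes, which lie in long tandem arrays on the short arms of the acrocentric chromosomes. Each repeat has a transcribed 45S unit, in which external and internal transcribed spacers flank the 18S, 5.8S and 28S RNA genes, followed by a long intergenic spacer. Contigs often stay unplaced because they hold such repeats, satellite DNA or segmental duplications. A repeat that is present in fewer copies in the assembly than in the cell collects reads from all of its copies, in ChIP and input alike, so the level of the input matters for peaks on these sequences. The names of the contigs are those of GRCh38. The files name no build, and the place of each contig was taken from what is known of that assembly. Satellite content was not analysed here. The gene table used gives no contig for a gene, so of the genes only the 45S units known to lie on KI270733.1 (RNA45SN4) and GL000220.1 (RNA45SN5) could be set against peaks.

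The ChIP libraries held 16132466 tags (labelled HA) and 22257947 tags (labelled WT), against 23134375 and 24567954 tags in their inputs. A tag is a read kept after removal of duplicates and extended to the fragment length, and the pileup of a peak is the number of tags over its summit. Tags spread evenly over the genome would give a background, here called genome-wide, of 1.05 tags per position in the HA library and 1.68 in the WT library, a ratio of 1.61. Peaks were called from 4 tags upwards in the former and from 6 in the latter. The HA list had 12511 peaks on assembled nuclear chromosomes and the WT list had 6602, and these served for comparison.

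Contig peaks were spread over 67 contigs, of which 25 were unlocalized and 42 unplaced. Both lists had a peak on 25 of them. The list labelled HA alone had peaks on 13 contigs, with 17 peaks in all and at most 3 per contig, and the WT list alone on 29, with 60 peaks in all and at most 6. On 44 contigs the WT list had more peaks, on 17 the HA list had more, and on 6 the numbers were equal. Unlocalized contigs held 57 of the 119 peaks labelled HA and 141 of the 272 labelled WT.

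**Figure D1:**
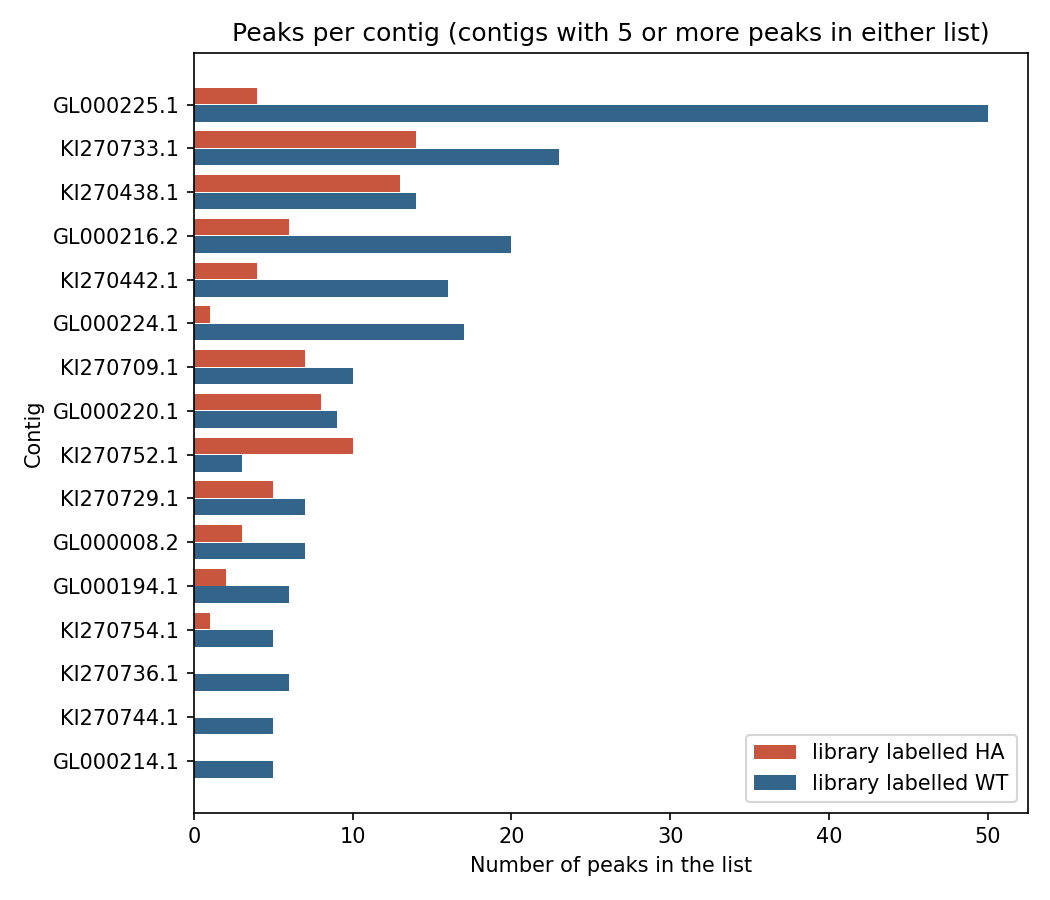
Number of peaks (horizontal axis) on each of the 16 contigs with 5 or more peaks in either list (vertical axis), for the HA library (red) and the WT library (blue). GL000225.1 had 50 peaks in the WT library against 4 in the HA library, and KI270752.1 is the contig shown with more peaks in the HA library (10 against 3).

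The counts were uneven. The 3 contigs with most peaks of each list held 37 of the peaks labelled HA (31.1%) and 93 of those labelled WT (34.2%). The 16 contigs with 5 or more peaks in either list held 78 and 203 peaks, and the other 51 contigs held 41 and 69. GL000225.1, an unlocalized contig of chromosome 14, had 50 peaks in the WT library and 4 in the HA library, which is 46 of the 153 peaks by which the counts differed. GL000224.1 had 17 peaks labelled WT and 1 labelled HA, GL000216.2 had 20 and 6, and KI270442.1 had 16 and 4. The contigs with ribosomal RNA genes were less uneven. KI270733.1, an unlocalized contig of chromosome 22, had 23 peaks labelled WT and 14 labelled HA, and the unplaced GL000220.1 had 9 and 8. The unplaced KI270438.1 had 14 and 13, KI270709.1 of chromosome 1 had 10 and 7, and KI270729.1 of chromosome 17 had 7 and 5. GL000008.2 of chromosome 4 had 7 and 3, GL000194.1 of chromosome 14 had 6 and 2, and KI270754.1 had 5 and 1. KI270736.1 of chromosome 22 had 6 peaks in the WT library, and GL000214.1 and KI270744.1 had 5 each, with 0 in the HA library. KI270752.1 had 10 peaks labelled HA and 3 labelled WT.

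The pileup of contig peaks was high, and so was the background. For each summit the background in tags was derived from its pileup and fold enrichment, the latter being the ratio of ChIP tags to the local background with 1 added to both. This background did not fall below the genome-wide level. It was within 0.01 tags of that level at 14.3% (labelled HA) and 2.57% (labelled WT) of contig peaks. On assembled chromosomes these shares were 54.5% and 23.6%, so the median there is partly this lower bound. In the HA library the median pileup was 17 tags on contigs and 5 on assembled chromosomes, and the median background was 4.22 against 1.05 tags. The WT library had a median pileup of 27 against 8 tags and a median background of 9.97 against 1.87 tags. The median background on contigs was thus 4.03 and 5.93 times the genome-wide level, and the highest reached 227 and 203 times. A background of at least 10 times the genome-wide level was found at 51 of the 119 contig peaks labelled HA (42.9%, 34.3% to 51.8%) and at 104 of the 272 labelled WT (38.2%, 32.7% to 44.1%). On assembled chromosomes it was found at 138 peaks (1.10%) and 189 peaks (2.86%).

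Fold enrichment did not follow the pileup. Its median on contigs was 2.64 in the HA library and 2.36 in the WT library, against 2.93 and 2.85 on assembled chromosomes. Fold enrichments under 2 made up 22.7% of contig peaks labelled HA and 29.8% of those labelled WT, but 0.751% and 2.91% of peaks on assembled chromosomes. The cutoff of the peak caller, a p-value of 0.005, sets a lower fold where the background is higher. In the HA library the smallest pileup that passes is 4 tags at the genome-wide background, a fold enrichment of 2.44, and 132 tags at 100 times that background, a fold enrichment of 1.26. For the WT library these folds are 2.61 and 1.20. Among peaks with at least 10 times the genome-wide background the median fold enrichment was 1.89 on contigs and 1.87 on assembled chromosomes in the HA library, and 1.83 and 1.82 in the WT library. At 50 times or more the medians were 1.77 and 1.79 in the HA library and 1.47 and 1.57 in the WT library. Below 10 times they were 2.93 on both in the HA library, and 2.73 and 2.85 in the WT library. Backgrounds were not matched within these classes and the cutoff bounds the folds from below, so like medians do not show that the sequences were alike.

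**Figure D2:**
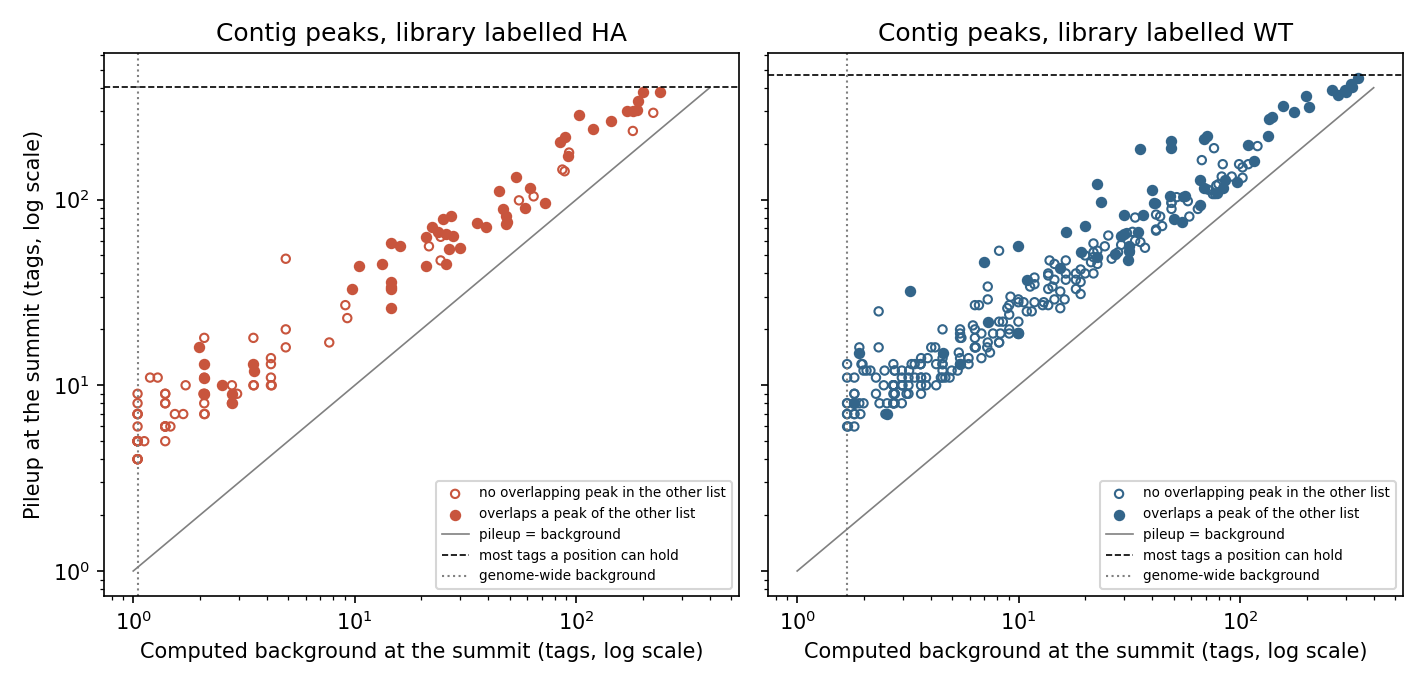
Pileup at the summit against the computed background, both in tags on log scales, for the 119 contig peaks labelled HA (left) and the 272 labelled WT (right). Filled points overlap a peak of the other list and open points do not, the grey line marks a pileup equal to the background, the dotted line the genome-wide background and the dashed line the most tags a position can hold (402 and 468). Filled points gather at high backgrounds, with a median of 26.8 tags in the HA library and 44.4 in the WT library.

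Calls with low q-values made up a larger share of contig peaks than of the whole lists. A −log10 q of at least 5, where q is the p-value adjusted by the peak caller, was reached by 29 contig peaks labelled HA (24.4%) on 8 contigs and by 41 labelled WT (15.1%) on 11 contigs. Over the whole lists 2.37% and 2.24% of peaks reached it. Contigs held 9.67% (6.82% to 13.5%) of all such peaks labelled HA and 26.6% (20.3% to 34.1%) of those labelled WT. A fold enrichment of at least 5 was reached by 5 contig peaks labelled HA (4.20%, against 1.45% of the whole list) and 11 labelled WT (4.04%, against 0.684%). The q-value was 1 for 26.9% of contig peaks labelled HA and 25.7% of those labelled WT, but for 64.5% and 59.3% of peaks on assembled chromosomes. The contig peaks with −log10 q of at least 5 had a median background of 44.6 and 40.8 tags. On assembled chromosomes such peaks had 3.99 tags in the HA library and 39.9 in the WT library, so in the latter the levels were close. At backgrounds of at least 10 times the genome-wide level, 25 of 51 contig peaks labelled HA reached it (49.0%, 35.9% to 62.3%), against 50.7% (42.5% to 58.9%) on assembled chromosomes. For the WT library these shares were 29.8% (21.9% to 39.2%) and 39.7% (33.0% to 46.8%), so at high backgrounds the share on contigs was not the larger one in either library. Below that background it was 5.88% (2.31% to 14.2%) against 1.55% (1.35% to 1.79%) in the HA library and 5.95% (3.27% to 10.6%) against 0.593% (0.432% to 0.812%) in the WT library. Backgrounds were not matched within this class either.

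The 10 contig peaks with the highest −log10 q were spread differently over contigs in the lists, with KI270438.1 and GL000220.1 in both. In the HA library, 4 of the 10 lay on KI270709.1, 3 on KI270438.1 and 1 each on GL000205.2, GL000216.2 and GL000220.1. Of the 10 in the WT library, 7 lay on KI270733.1 and 1 each on GL000220.1, KI270438.1 and GL000226.1. The best peak of KI270733.1 in the HA library ranked 11. Of each 10, 9 had a background of at least 10 times the genome-wide level, and an overlap with the other list was found for 9 (labelled HA) and 8 (labelled WT).

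The strongest contig peak labelled HA, at KI270438.1:110399-110641, rose to 285 tags over a background of 103, with a fold enrichment of 2.74 and −log10 q of 41.4. The peak at the same place in the WT library, KI270438.1:110378-110648, had 320 tags over a background of 156 and a fold enrichment of 2.05. The strongest contig peak labelled WT, at KI270733.1:173014-173451, rose to 187 tags over a background of 35.3, with a fold enrichment of 5.17 and −log10 q of 64.9. The peak over it in the HA library had 71 tags and a fold enrichment of 3.09. Each library's strongest contig peak was therefore also called in the other library, with a lower fold.

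Peaks without a counterpart were 1 of the 10 strongest labelled HA and 2 of the 10 labelled WT by −log10 q, and 4 of 29 and 14 of 41 of those with a −log10 q of at least 5. By fold they were commoner, with 4 of the 5 peaks labelled HA and 5 of the 11 labelled WT that reached a fold enrichment of at least 5. Of all contig peaks, 67 of 119 labelled HA and 210 of 272 labelled WT had no counterpart. Over the whole lists only 1.67% and 3.08% of peaks overlapped the other list. On assembled chromosomes, 68 of 262 peaks labelled HA and 57 of 113 labelled WT with a −log10 q of at least 5 overlapped. GL000205.2:87880-88216, on an unlocalized contig of chromosome 17, had 48 tags (35.4 to 63.6, exact Poisson) over a background of 4.88 tags in the HA library, a fold enrichment of 8.33, the highest of any contig peak. The nearest peak labelled WT on that contig was 22734 bp away. The unplaced GL000226.1 had 3 peaks in the WT library and 0 in the HA library. These were GL000226.1:6781-7069 with 53 tags and a fold enrichment of 5.90, GL000226.1:5328-5617 with 25 tags and 7.80, and GL000226.1:9533-9870 with 13 tags and 5.22. KI270752.1:2064-2417 in the HA library had 18 tags over a background of 2.09 and a fold enrichment of 6.14, and the nearest peak labelled WT was 18044 bp away. A second peak of that contig, KI270752.1:4300-5262, had 11 tags and a fold of 5.24, and KI270710.1:30678-30948 had 11 tags and 5.48, both labelled HA. Labelled WT, KI270733.1:122873-123287 in the 5′ external transcribed spacer had 16 tags and a fold of 5.85, with the nearest peak labelled HA 890 bp away, and KI270754.1:32799-33114 had 16 tags and 5.10. KI270733.1:158581-158924 in the WT library, in the intergenic spacer, had 189 tags over 76.1 and a fold enrichment of 2.46, and the nearest peak labelled HA was 6181 bp away. Whether the other library had tags below the cutoff at these places is not recorded in the lists.

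Contig peaks recurred between the lists more often than other peaks. Of the contig peaks labelled HA, 52 of 119 (43.7%, 35.1% to 52.7%) overlapped a contig peak labelled WT by at least 1 bp, and of those labelled WT, 62 of 272 (22.8%, 18.2% to 28.1%) overlapped one labelled HA. Summits of the same region share its bounds, and these 52 and 62 peaks came from 50 and 46 regions. Over the whole lists these shares were 1.67% and 3.08%, and on assembled chromosomes 1.28% and 2.27%. Contigs thus held 24.5% (19.2% to 30.7%) of all overlapping peaks labelled HA and 29.2% (23.5% to 35.7%) of those labelled WT. The overlaps fell on 11 contigs. On KI270733.1 13 of 14 peaks labelled HA overlapped one labelled WT, on KI270438.1 10 of 13, on KI270709.1 7 of 7, on GL000220.1 6 of 8 and on GL000216.2 6 of 6. On GL000225.1 3 of 4 did so, but 3 of 50 labelled WT. On KI270442.1 none of the 4 peaks labelled HA met any of the 16 labelled WT. The remaining overlaps were on GL000008.2, GL000224.1, KI270729.1, KI270731.1 and KI270752.1, with 1 or 2 peaks labelled HA each.

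Overlap went with background. At backgrounds of at least 10 times the genome-wide level, 41 of 51 contig peaks labelled HA overlapped a peak labelled WT (80.4%, 67.5% to 89.0%), and on assembled chromosomes 69.6% (61.4% to 76.6%) did. For the WT library these shares were 46.2% (36.9% to 55.7%) on contigs and 47.6% (40.6% to 54.7%) on assembled chromosomes. The intervals overlap in both libraries, so at high backgrounds contig peaks could not be told from other peaks by this measure. Below that background the shares on contigs were higher, with 16.2% (9.28% to 26.7%) against 0.517% (0.405% to 0.660%) in the HA library and 8.33% (5.03% to 13.5%) against 0.936% (0.728% to 1.20%) in the WT library. Some of the 11 overlapping contig peaks labelled HA in this class lay on KI270733.1 and GL000220.1. Backgrounds were not matched within the class, so these shares do not compare peaks of like background.

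The overlapping peaks formed 51 pairs of 1 peak labelled HA and 1 labelled WT. A called region with several summits could enter more than 1 pair, so the pairs were not all separate places. Their summits lay a median of 20 bp apart, and 40 pairs were within 50 bp. The background was 1.55 times higher in the WT library in the median, close to the 1.61 of the genome-wide levels. The fold enrichment was higher in the WT library in 22 pairs and in the HA library in 29, with a median ratio of WT to HA of 0.931. On assembled chromosomes the corresponding 141 pairs were higher in the WT library in 38 and in the HA library in 103, with a median ratio of 0.874. The counting intervals of the folds did not overlap in 7 contig pairs. They leave out the counting error of the background, so separate intervals do not show a difference beyond all counting error.

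**Figure D3:**
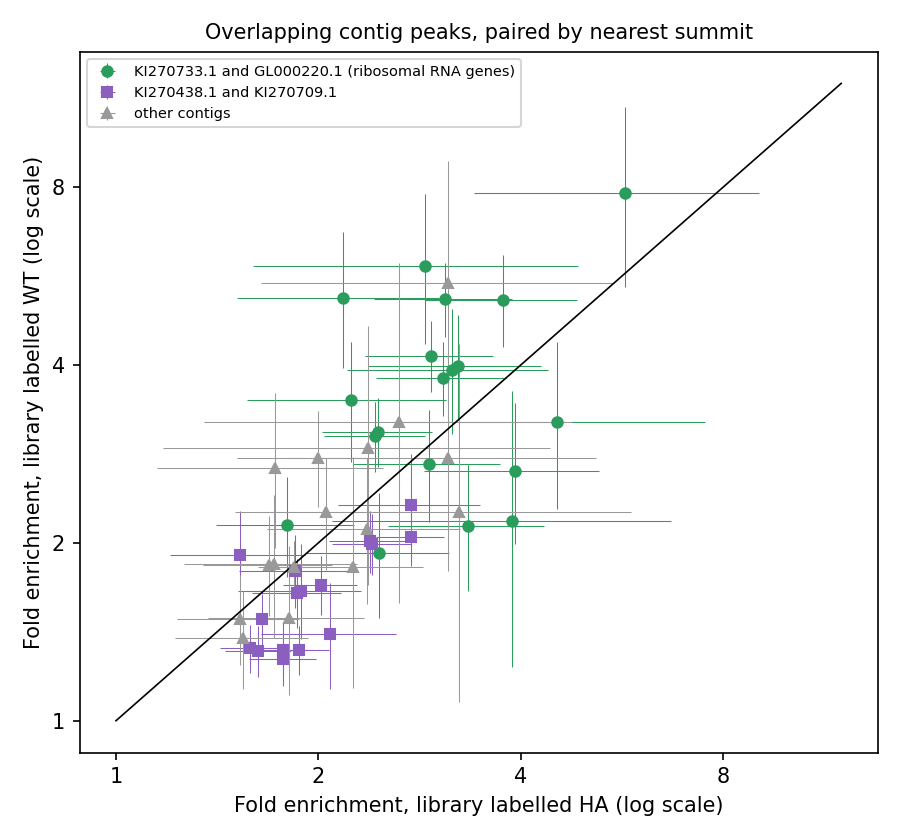
Fold enrichment of the 51 pairs of overlapping contig peaks in the HA library (horizontal axis) and the WT library (vertical axis), both on log scales, with exact Poisson 95% intervals of the tags as bars and the line of equal values in black. Of the pairs on contigs with ribosomal RNA genes (green), 13 of 19 lie above the line, and of the pairs on KI270438.1 and KI270709.1 (purple), 15 of 16 lie below it.

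The direction differed between contigs. A higher fold in the HA library was also the commoner direction on assembled chromosomes (103 of 141 pairs, median ratio 0.874). On KI270438.1 all 9 pairs were higher in the HA library, with a median ratio of 0.806, and on KI270709.1 6 of 7 were, with a median ratio of 0.843. The region KI270438.1:101459-102192 labelled WT entered more than 1 of the 9 pairs, as did KI270438.1:109191-110075. Of the 7 pairs with separate intervals, 4 were on KI270438.1 and 1 on KI270709.1, all higher in the HA library. Some pileups there were close to what a position can hold. With 1 tag kept per position and strand, a position holds at most 402 tags in the HA library and 468 in the WT library. At KI270438.1:109199-110060 both summits labelled HA had 377 tags, and the summits labelled WT in that region had 453, 418 and 403. The scaled inputs can reach 280 and 424 tags, so where both ChIP and input are full the fold enrichment comes to 1.43 and 1.10. Of the 16 pairs on KI270438.1 and KI270709.1, 6 had a pileup over 80% of the limit in either library, 4 of them among the 5 pairs with separate intervals. Of the 26 pairs off the ribosomal contigs and under 80% of the limit, 17 were higher in the HA library and 9 in the WT library. The part of this limit in the direction was not tested.

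On the contigs with ribosomal RNA genes, 13 of 19 pairs were higher in the WT library, with a median ratio of 1.24. The largest pileup there was 47.0% of the limit. KI270733.1 gave 10 of 13 pairs with the higher fold in the WT library, and GL000220.1 gave 3 of 6. Both remaining pairs with separate intervals were on KI270733.1, and both were higher in the WT library.

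Position in the ribosomal repeat was read as distance from the start of the 45S unit, in the RefSeq gene table of GRCh38.p14. On KI270733.1 the unit is 13373 bp long, with the 18S gene at 3658 to 5526 bp, the 5.8S gene at 6604 to 6759 bp and the 28S gene at 7931 to 13007 bp, and a second copy of its genes begins 45081 bp further on. On GL000220.1 the unit is 13357 bp long. The copies are nearly identical and reads were kept where they mapped uniquely, so tags of the ribosomal repeats are those that could be assigned to 1 of the copies in the assembly.

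On KI270733.1, 10 of 14 peaks labelled HA and 13 of 23 labelled WT had their summit in the 45S unit. Most of these lay in the transcribed spacers, 9 labelled HA and 11 labelled WT. The 28S gene had 1 summit in each list, the 18S gene had 0 labelled HA and 1 labelled WT, and the 5.8S gene had 0 in both. On GL000220.1 all 8 peaks labelled HA and all 9 labelled WT lay outside the 45S unit. Of these, 5 labelled HA and 8 labelled WT were within a spacer's length of it (30615 bp, the distance between the copies less the unit), and 3 and 1 lay further upstream, where the sequence was not analysed here. The transcribed spacers, which are cut out of the precursor, held 9 summits labelled HA against 1 in the mature RNA genes, and 11 labelled WT against 2. These counts were not set against the lengths of the parts. Which parts of the copies a read could map to uniquely was not analysed here.

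**Figure D4:**
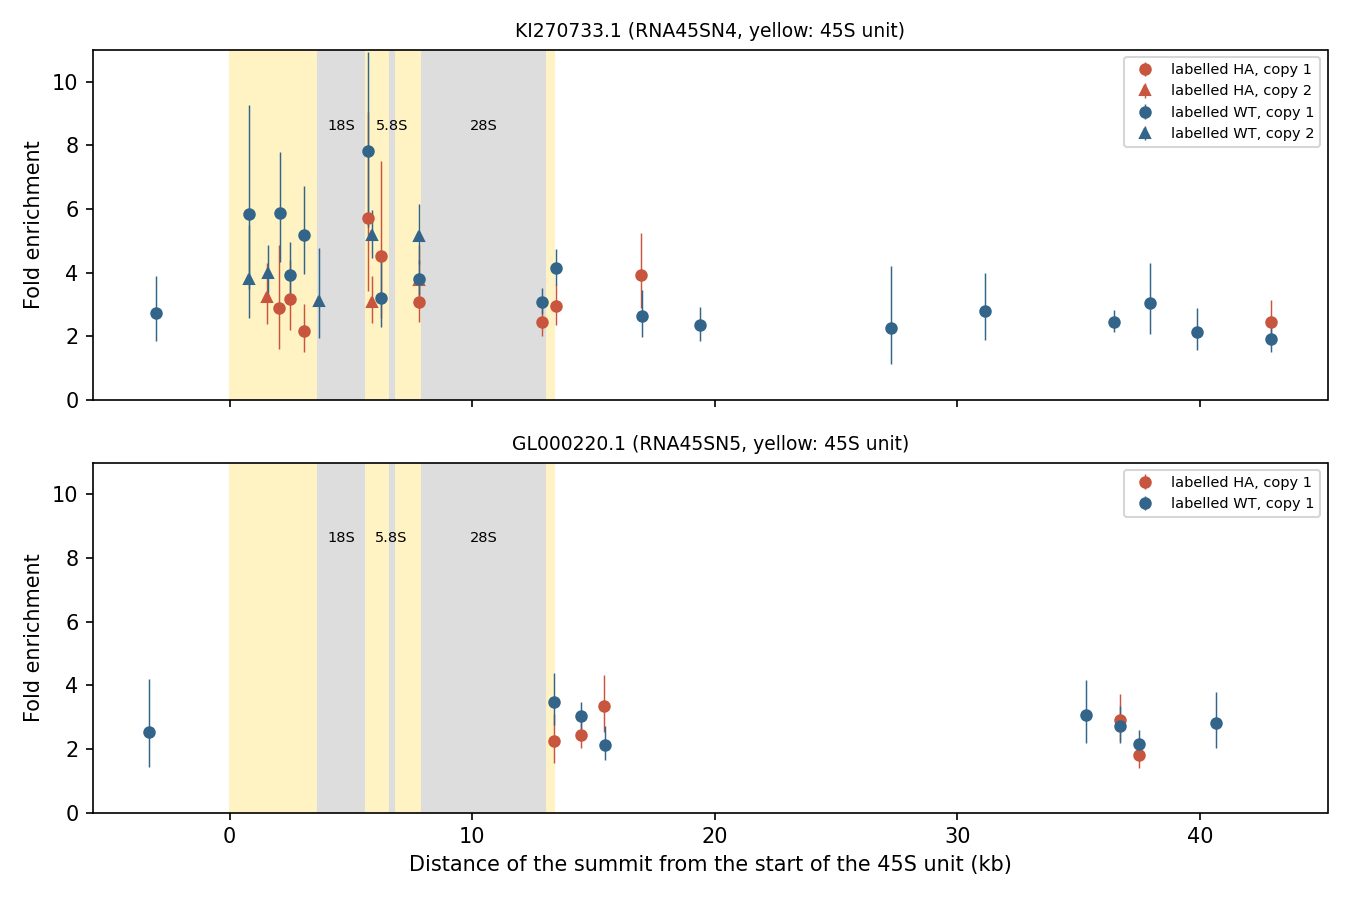
Fold enrichment of peaks (vertical axis, bars are exact Poisson 95% intervals) against the distance of the summit from the start of the 45S unit in kb (horizontal axis) on KI270733.1 (top) and GL000220.1 (bottom). Yellow marks the 45S unit and grey the 18S, 5.8S and 28S genes, circles are the first copy and triangles the second copy laid over it, and the 4 peaks labelled HA and 1 labelled WT further than 5 kb upstream are left out. In the 45S unit of KI270733.1 blue points (library labelled WT) lie above the red points (library labelled HA) next to them in 9 of 10 pairs.

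Within the 45S unit of KI270733.1, 9 of 10 pairs were higher in the WT library, with a median fold enrichment of 4.57 against 3.12 and a median ratio of 1.31 (range 0.707 to 2.39). The summits labelled WT at 2065, 2476 and 3065 bp belonged to a single called region, KI270733.1:124188-125504, so these pairs were not separate places. In the intergenic spacers of both contigs 4 of 8 pairs were higher in the WT library, with a median ratio of 1.06 (0.639 to 1.56). The remaining pair, further upstream on GL000220.1, had a fold of 3.88 labelled HA and 2.18 labelled WT. This division was made after the values were seen.

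In the 5′ external transcribed spacer, the leading stretch of the precursor, 3 places of the first copy carried pairs. At 2045 and 2065 bp the fold enrichment was 2.89 (1.60 to 4.88) in the HA library and 5.88 (4.34 to 7.80) in the WT library. At 2483 and 2476 bp it was 3.16 labelled HA and 3.93 labelled WT. At 3062 and 3065 bp it was 2.17 (1.52 to 3.03) labelled HA, from 33 tags, and 5.20 (3.95 to 6.72) labelled WT, from 56 tags. This last pair had separate intervals, which do not include the counting error of its low backgrounds. Its background was lower in the WT library (9.97 tags against 14.6), whereas over the 10 pairs of the unit it was 1.65 times higher there in the median. In the second copy, at 1543 and 1565 bp, the folds were 3.23 and 3.99. A peak at 786 bp in the first copy and one at 805 bp in the second, with folds of 5.85 and 3.81, were called in the WT library alone.

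In internal transcribed spacer 1, between the 18S and 5.8S genes, the WT library had the highest fold of its contig peaks, 7.82 (5.42 to 10.9) from 32 tags at 5723 bp, and the HA library had 5.71 (3.41 to 9.07) from 16 tags at 5698 bp. The pair at 6241 and 6250 bp was the exception in the unit, with 4.53 labelled HA and 3.20 labelled WT. In the second copy, at 5859 and 5886 bp, the folds were 3.09 (2.42 to 3.88) and 5.17 (4.46 to 5.97), the other pair with separate intervals.

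Internal transcribed spacer 2, between the 5.8S and 28S genes, had a peak at nearly the same position in both copies and in both lists. In the HA library it lay at 7792 bp in the first copy and 7789 bp in the second, with 79 and 58 tags and folds of 3.06 and 3.77. In the WT library it lay at 7811 and 7798 bp, with 189 and 121 tags and folds of 3.81 and 5.16. Near the 3′ end of the 28S gene, at 12863 and 12872 bp, the folds were 2.45 (2.02 to 2.95) labelled HA and 3.08 (2.69 to 3.52) labelled WT.

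Past the end of the unit the order was mixed. At 70 and 95 bp past the end on KI270733.1 the folds were 2.94 (2.35 to 3.65) labelled HA and 4.15 (3.60 to 4.75) labelled WT, and at 30 and 23 bp past the end on GL000220.1 they were 2.24 (1.57 to 3.10) and 3.49 (2.74 to 4.38). At 1114 and 1128 bp past the end on GL000220.1 the pileup was 132 tags labelled HA and 211 labelled WT, the highest of that contig in each list, with folds of 2.43 and 3.03. At 2088 and 2111 bp the fold was higher in the HA library (3.35 against 2.14), as it was on KI270733.1 at 3597 and 3621 bp (3.93 against 2.65) and at 29569 and 29563 bp (2.46 against 1.92). The counting intervals of these 6 pairs overlapped.

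Among contigs without a ribosomal gene described here, the levels differed widely. KI270438.1 had the highest backgrounds at single peaks, up to 238 tags labelled HA and 342 labelled WT. Its median backgrounds were 72.5 and 180 tags and its median folds 1.87 and 1.44. KI270709.1 had median backgrounds of 89.3 and 112 tags and folds of 2.02 and 1.80. On both, the pileups were the largest of all contigs, up to 377 and 453 tags on KI270438.1 and 301 and 380 tags on KI270709.1.

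GL000225.1 had the largest difference in number. Its 50 peaks came from 46 regions between 887 and 199942 bp, with a median pileup of 40 tags, a median background of 17.2 and fold enrichments of 1.28 to 5.50. Of these, 2 reached a −log10 q of 5 and 11 had a q-value of 1. The 4 peaks labelled HA had pileups of 6 to 36 tags and folds of 1.73 to 3.12, and 0 reached a −log10 q of 5. GL000224.1 was alike, with 17 peaks labelled WT at a median background of 41.7 tags and a median fold of 1.97, of which 2 reached a −log10 q of 5. KI270442.1, GL000194.1 and KI270744.1 had low median backgrounds in the WT library, of 2.76, 4.07 and 4.53 tags. The highest at single peaks were 13.6, 7.25 and 41.7 tags, and no peak there reached a −log10 q of 5. That limit was reached by 24.4% of all contig peaks labelled HA and 15.1% of those labelled WT, and by 2.37% and 2.24% of the whole lists.

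KI270752.1 went the other way, with 10 peaks labelled HA and 3 labelled WT. Its peaks labelled HA had pileups of 4 to 64 tags and folds of 1.89 to 6.14, and 2 of them reached a −log10 q of 5. The 3 labelled WT had 19, 19 and 8 tags. In the 2 pairs of this contig the background was lower in the WT library, 0.503 times that of the HA library in the median, whereas over all pairs it was 1.55 times higher. In 1 pair it was 27.9 tags labelled HA and 9.97 labelled WT, at summits 86 bp apart. In the other it was 2.79 and 1.81 tags, at summits 136 bp apart. In these 2 pairs alone, the background thus differed between the libraries in the opposite direction to the genome-wide level.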

How the data were processed

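The analysis used the peak lists of both ChIP libraries. Per the file headers, the authors ran MACS 2.1.0.20150420 for every ChIP library with the matching input as control, unpooled, at a p-value cutoff of 0.005 and without a fragment model, using extensions of 201 bp (labelled HA) and 234 bp (labelled WT), a genome size of 3099750718, 1 tag per position and strand, regional input windows of 1000 and 10000 bp, and peaks split at several summits. The read files named there were of uniquely mapped reads without duplicates. The submitters' processing notes name BWA 0.7.12 and MACS2 2.1.0. The genome build is not given in the sources used here.

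The deposited values are the pileup (a signal, in extended tags), the fold enrichment (the ratio of pileup to local background, with 1 added to both), the −log10 p-value and −log10 q-value, and the peak length in bp. The headers state that q-values were not calculated, but values were present and were used as given.

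Background was computed as (pileup + 1) / fold enrichment − 1, and the Poisson p-value from pileup and background came within 0.02 (−log10) of the deposited one for all 119 and 272 contig peaks. Peaks sharing at least 1 bp counted as overlapping, and these were paired to the nearest summit. Shares have 95% Wilson intervals, and pileups and folds exact Poisson intervals of the ChIP tags, all covering counting error only. Counting error of the background was left out of the intervals of folds. With 1 library per condition no test between libraries was made. Contigs named are those with at least 5 peaks in either list, with an overlap, or with 1 of the 10 contig peaks of highest −log10 q in a list. Contigs and lists were chosen with earlier results of these data known. Ribosomal positions come from the RefSeq gene table of GRCh38.p14, in which 12 ribosomal gene symbols matched. Densities of satellite motifs, which need contig sequence, were not analysed here. The steps were tested on simulated data. Software was scipy 1.17.1, numpy 2.4.6, pandas 2.3.3 and, for plots, matplotlib 3.10.9, under Python 3.11.15. The alternatives were limits on q and fold enrichment, merging within 500 bp, other definitions of overlap and background, and subsets of contigs.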

Additional observations from a re-analysis of the deposited data

How the results depend on the processing

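In every alternative the share of the list on contigs was larger for the library labelled WT than for the library labelled HA. When both lists were limited to −log10 q of 5 or more, 29 (HA) and 41 (WT) contig peaks on 8 and 11 contigs remained, which were 9.67% and 26.6% of such peaks, 62.1% and 43.9% overlapped, the median background was 44.6 and 40.8 tags, and the median fold enrichment for WT was 2.59. With a fold enrichment of at least 5, the values were 5 and 11 peaks on 4 contigs each, shares of 2.73% and 23.4%, overlaps of 20% and 9.09%, folds of 5.71 and 5.50 and backgrounds of 1.98 and 3.22. Unplaced contigs alone gave 62 and 131 peaks on 23 and 32 contigs, shares of 0.490% and 1.91%, and a background of 6.34 for WT. Merging within 500 bp gave a share of 3.36% and an overlap of 17.8% for WT. Leaving out GL000225.1, which held the most peaks, gave a share of 3.23% and a background of 7.25 for WT. A reciprocal overlap of 50% gave 32.8% and 15.8%. Without the ribosomal contigs, an alternative chosen after seeing the data, the shares were 0.766% and 3.49% and the overlaps 34.0% and 17.9%. The cause of these changes was not tested. The other 38 values moved by less than the interval of the main value, or by less than 1.5 times for counts. No paired analysis was possible because there was 1 ChIP library per condition. At 4 to 8 tags, single peaks carry little precision.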
